A study of Drosophila melanogaster with 3 samples.

Results

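Chains of closely spaced binding summits of the fly protein CG44002 were examined, each chain being 3 or more summits in a row with no more than 2 kb between neighbours. The summits, the highest points of the ChIP-seq peaks, were those of the list kept by the irreproducible discovery rate (IDR), a filter for peaks whose rank repeats between replicates. The members were chosen by the positions of the summits in that list, so the number of chains, their spacing and their signal are descriptions and carry no test. The rule found 412 chains with 1469 summits, 20.7% of the 7089 summits on 6 chromosome arms. A further 917 chains were pairs, and 3786 summits (53.4%) were single, with no neighbour within 2 kb.

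The samples were 3 biological replicates of whole Drosophila melanogaster prepupae, males and females pooled, of unknown age. All came from 1 transgenic line that stably expresses CG44002 with GFP at its C-terminal end, and chromatin was precipitated through the GFP tag. The labels call the strain CG34406-GFP and enter CG34406 as the antibody, an older name that the reference gene table gives to CG44002 and to a neighbouring pseudogene. There is 1 group, so nothing is compared between conditions, and the signal comes from all tissues of the animal mixed together.

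A transcription factor or chromatin protein often binds DNA at several separate stretches around a gene. In flies, genes that direct development tend to be long, and their regulatory DNA is spread over large introns and the DNA before the gene. Prepupae are at the start of metamorphosis, when a pulse of the steroid hormone ecdysone turns larval tissues towards destruction and imaginal discs towards adult structures. Whole animals hold all of these tissues, so summits that lie side by side in the list need not be bound in the same cell.

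Sequences from 4 chains show what lay under the summits and between them. They are the chains with the highest summed signal on their arms. Each stretch holds 81 bp of the release 6 reference genome (dm6), read 5′ to 3′, centred on a summit or midway between neighbouring summits. Capitals mark the longest run of A and T. Summits whose stretch touched an exon were passed over, and the 3 strongest of the others are shown for each chain, with 1 stretch between summits. The chain named for CG43389 lies around the start of that gene, and no gene holds it. The strongest summits of the CG43389 and osa chains are therefore not among the sequences.
ush, the second of 4 summits, chr2L:480027-480107, plus strand: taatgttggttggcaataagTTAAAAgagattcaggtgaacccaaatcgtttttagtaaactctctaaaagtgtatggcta
ush, the third summit, chr2L:481017-481097, plus strand: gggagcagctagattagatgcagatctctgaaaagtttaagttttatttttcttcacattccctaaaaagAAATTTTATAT
ush, the fourth summit, chr2L:481907-481987, plus strand: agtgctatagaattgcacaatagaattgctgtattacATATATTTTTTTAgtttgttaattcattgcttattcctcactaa
ush, midway between the second and the third summit, chr2L:480522-480602, plus strand: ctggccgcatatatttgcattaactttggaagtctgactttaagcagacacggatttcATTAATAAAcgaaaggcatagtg
CG43389 chain, the second of 7 summits, chr3L:3246488-3246568, plus strand: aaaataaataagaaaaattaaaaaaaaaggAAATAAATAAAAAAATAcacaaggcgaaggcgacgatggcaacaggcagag
CG43389 chain, the third summit, chr3L:3246701-3246781, plus strand: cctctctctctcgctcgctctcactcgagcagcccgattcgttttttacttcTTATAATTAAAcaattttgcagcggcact
CG43389 chain, the fourth summit, chr3L:3247638-3247718, plus strand: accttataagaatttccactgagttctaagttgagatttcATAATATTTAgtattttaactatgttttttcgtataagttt
CG43389 chain, midway between the fourth and the fifth summit, chr3L:3248251-3248331, plus strand: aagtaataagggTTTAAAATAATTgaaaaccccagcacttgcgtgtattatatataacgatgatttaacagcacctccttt
osa, the first of 6 summits, chr3R:17700535-17700615, plus strand: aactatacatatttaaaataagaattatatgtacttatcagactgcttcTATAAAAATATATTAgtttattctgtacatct
osa, the third summit, chr3R:17702497-17702577, plus strand: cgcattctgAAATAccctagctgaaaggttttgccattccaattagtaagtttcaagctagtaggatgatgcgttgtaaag
osa, the fifth summit, chr3R:17703493-17703573, plus strand: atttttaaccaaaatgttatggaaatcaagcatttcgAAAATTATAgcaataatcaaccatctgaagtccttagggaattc
osa, midway between the second and the third summit, chr3R:17701996-17702076, plus strand: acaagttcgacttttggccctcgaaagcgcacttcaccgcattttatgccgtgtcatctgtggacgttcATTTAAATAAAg
Raf, the first of 10 summits, chrX:2293683-2293763, plus strand: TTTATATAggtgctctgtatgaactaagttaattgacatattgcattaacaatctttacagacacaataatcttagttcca
Raf, the sixth summit, chrX:2299152-2299232, plus strand: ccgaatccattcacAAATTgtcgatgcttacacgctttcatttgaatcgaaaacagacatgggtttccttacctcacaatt
Raf, the seventh summit, chrX:2300663-2300743, plus strand: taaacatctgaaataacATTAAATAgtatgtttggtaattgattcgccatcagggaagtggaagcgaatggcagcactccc
Raf, midway between the sixth and the seventh summit, chrX:2299907-2299987, plus strand: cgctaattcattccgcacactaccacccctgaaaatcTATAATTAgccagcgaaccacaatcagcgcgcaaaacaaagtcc

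At the ush summits 66.7%, 70.4% and 74.1% of the 81 bases were A or T, against 61.7% in the stretch between summits. At the Raf summits the shares were 71.6%, 60.5% and 60.5%, against 53.1% between summits. The CG43389 summits had 70.4%, 54.3% and 76.5%, against 67.9% between summits, so the third summit lay below the stretch between. The osa summits had 80.2%, 60.5% and 70.4%, against 55.6% between summits. The longest A and T run at these 12 summits ranged from 5 bases, at the third osa and the sixth Raf summit, to 17 bases at the second CG43389 summit, so they had no run length in common. The longest run in the stretch between summits had 9, 12, 11 and 8 bases at ush, CG43389, osa and Raf. In the same order, the summit with the shortest run had 6, 10, 5 and 5 bases. The summit with the longest run had 13, 17, 15 and 8 bases.

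Summits lay close together more often than the same numbers of positions spread evenly at random along each arm would. For such positions the exact expected number of chains, calculated from the arm lengths, was 66.0, with 205.6 summits or 2.90% of all. The IDR list held 6.24 times as many chains. This list was made from all 3 replicates together and has no error of its own. The spread was therefore taken from the 7089 peaks of highest signal in each replicate's own list of 30000, called the top N. These held 416 chains in replicate 1, 405 in replicate 2 and 443 in replicate 3, or 6.40 ± 0.270 times the expected number (SD, n = 3). The share of summits in chains was 21.2%, 20.4% and 22.7% in the same order, 21.4% ± 1.16. The 3 replicates lay close to each other and far above the expected share of 2.90%. Random positions take no account of genes or of the places where peaks can be called, so the ratio describes spacing and nothing more.

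Support in single replicates was a limit on the count. IDR peaks found in the top N of the other 2 replicates gave 230 chains without replicate 1, 244 without replicate 2 and 263 without replicate 3. These subsets hold fewer peaks, and their expected numbers were 27.1, 29.1 and 32.0 chains.

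Chains were mostly short. Of the 412 chains, 267 had 3 summits, 97 had 4, 25 had 5, 13 had 6, 6 had 7, 2 had 8, 1 had 9 and 1 had 10. The span from the first to the last summit had a median of 2306.5 bp, with quartiles of 1576 and 3194 bp. Within chains, neighbouring summits lay 199 to 1999 bp apart with a median of 903 bp. Gaps of at most 400 bp made up 20.1% of the 1057 gaps, and in 173 cases (16.4%) the neighbouring peaks overlapped. The labels give a sheared fragment size of 200 to 800 bp, so many neighbours lay within the length of 1 fragment. The excess of short distances had no edge at 2 kb. Pairs of neighbours 400 to 1000 bp apart numbered 651 against 219.6 expected, those 1000 to 2000 bp apart 862 against 350.5, and those 2000 to 3000 bp apart still 605 against 332.1. From 5000 to 10000 bp the list held fewer than expected, 1112 against 1272. Within 200 bp below the limit there were 150 gaps, and within 200 bp above it 162. The 67 chains that contained such a gap below the limit had a median summit signal of 183.9, and the 54 chains that a limit 200 bp wider would add had 164.0, in the authors' unit.

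**Figure D1:**
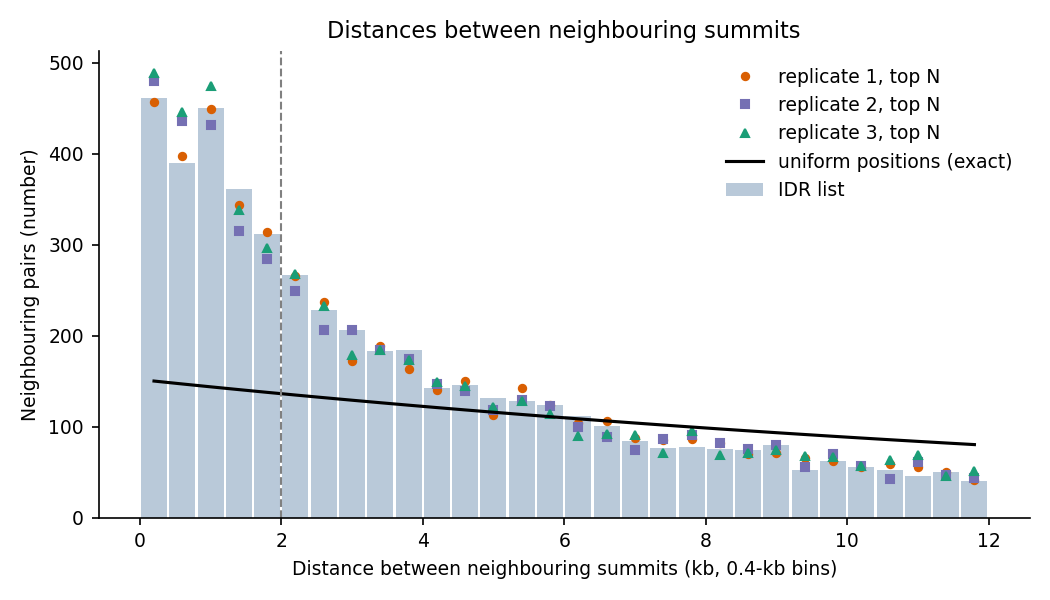
Number of neighbouring summit pairs (y axis) by the distance between them (x axis, kb, in 0.4-kb bins) in the IDR list (bars) and in the top N of each replicate (symbols), with the exact expectation for uniform positions on each arm (line). The dashed line is the 2 kb limit. In the bin from 2000 to 2400 bp, just past the limit, the list still held 267 pairs against 135.0 expected.

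Every large arm held chains and chromosome 4 held none. Arm 3L had the most, 97 chains against 17.0 expected, and in the replicates it held 108, 98 and 102. Arm 2L had 81, which was 6.75 times the expected number, and arm 3R 87 against 13.5. Arm 2R had the fewest of the large arms, 63 against 9.14, with 61, 63 and 70 in the replicates. The X held 84 chains against 14.3. Its replicates differed most in number: 80 in replicate 1, 86 in replicate 2 and 103 in replicate 3. They also had 1272, 1333 and 1412 summits on X, and their ratios to the expected number were close, at 6.69, 6.31 and 6.45. Per Mb, the replicates gave 2.56 ± 0.187 chains on 2R, 2.77 ± 0.249 on 3R, 3.20 ± 0.161 on 2L, 3.65 ± 0.179 on 3L and 3.81 ± 0.507 on X (SD, n = 3). 2R and 3R differed by less than the sum of their SDs, and so did 3L and X, whereas 2R lay below 3L in every replicate. Against the expected number the order of these arms was the reverse, with 6.90 ± 0.498 times as many chains on 2R and 6.13 ± 0.189 times on 3L (SD, n = 3), and 6.89 and 5.70 times in the IDR list. The small chromosome 4 had 9 summits in the IDR list, where 0.00109 chains were expected, so its count of 0 says nothing about spacing there.

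**Figure D2:**
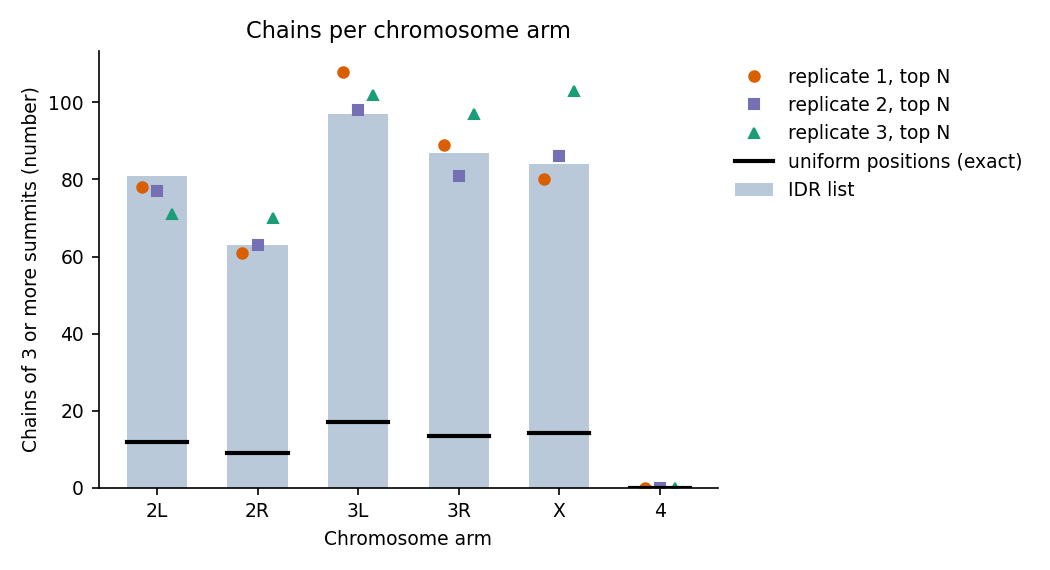
Number of chains of 3 or more summits (y axis) on each chromosome arm (x axis) in the IDR list (bars) and in the top N of each replicate (symbols), with the exact expected number for the IDR list (black lines). On X, replicate 3 lies at 103 chains, above replicates 1 and 2 at 80 and 86.

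The longest chain lay over the start of Raf on X, the gene of the kinase that passes signals from Ras. Its 10 summits ran over 10421 bp, from X:2293723 to X:2304144. They began 312 bp before the start of the neighbouring gene CG2865 and ended in a Raf intron. Top N peaks of every replicate covered all 10 summits. The strongest, 5237 bp into Raf, ranked 66 in the IDR list and 62, 66 and 67 in replicates 1, 2 and 3. The weakest, 487 bp before the Raf start, ranked 4760 in the IDR list and 5183 in replicate 1. In replicates 2 and 3 it lay in the same peak as its neighbour 203 bp away, at ranks 3157 and 2542. The chain thus had 10, 9 and 9 different peaks in the 3 replicates.

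A chain of 9 summits spanned 6201 bp of 2L over Pgk, which encodes the glycolytic enzyme phosphoglycerate kinase, and the overlapping gene Bacc. Of its summits 7 lay within 500 bp of an annotated start. Its strongest summit, 470 bp before a Bacc start, ranked 206 in the IDR list and 157 and 162 in replicates 2 and 3, and lay in no peak of replicate 1. The summit 200 bp further on lay in the replicate 1 peak of rank 213. The chain had 6, 7 and 7 different top N peaks in replicates 1, 2 and 3.

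Moe, the gene of moesin, which ties actin filaments to the cell membrane, held 8 summits over 5119 bp of X. The strongest ranked 517 in the IDR list and 604, 603 and 363 in the replicates. Of the 8 summits 5 lay in introns and 3 near alternative starts, and 6 or 7 different top N peaks covered them in each replicate. A chain of equal size on 3L lay in no coding gene. Its summits flanked the start of lncRNA:CR43883, a long noncoding RNA gene, and all 8 were found as 8 different top N peaks in every replicate. Its ranks ran from 1150 to 3749 in the IDR list.

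**Figure D3:**
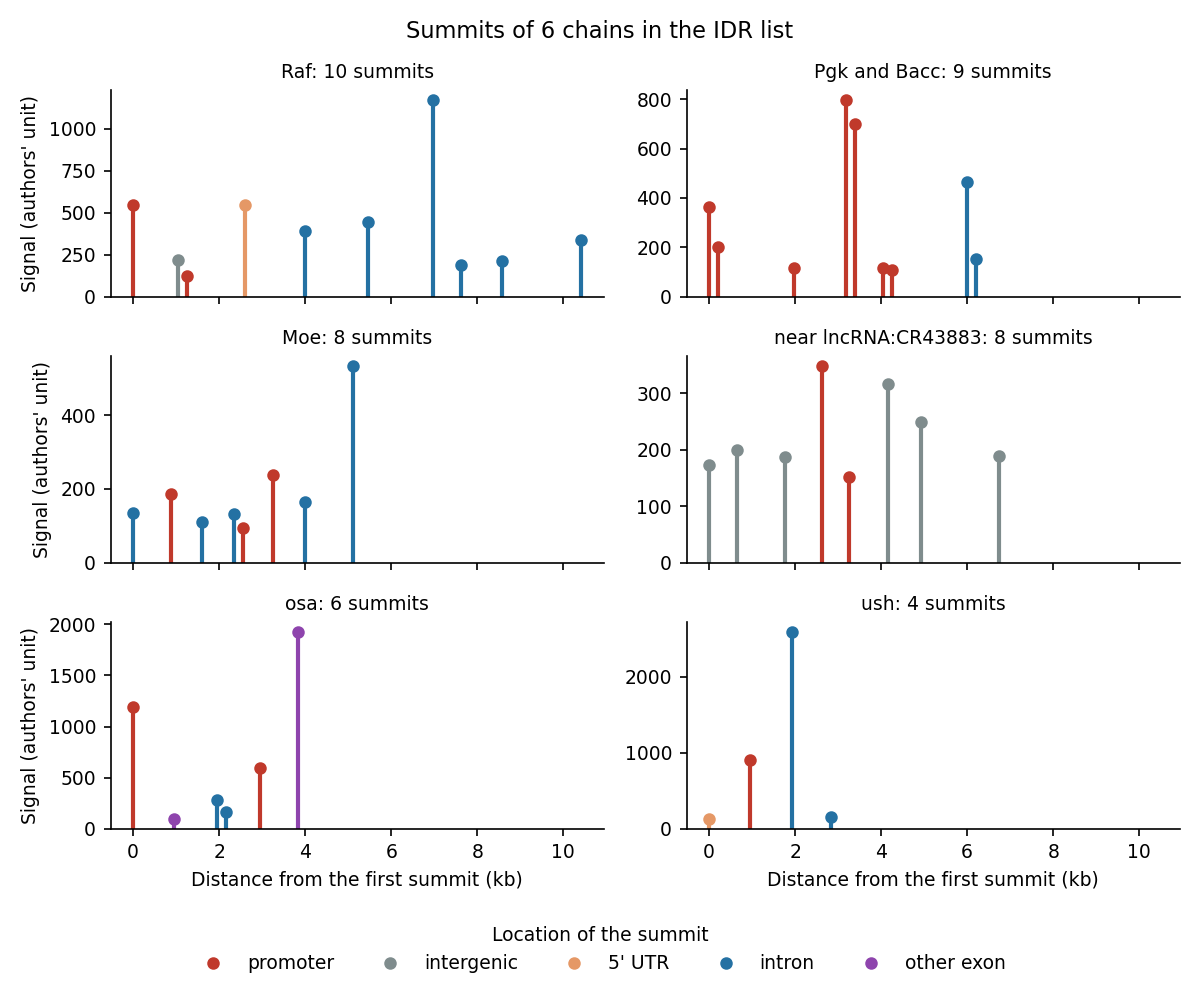
Summits of 6 chains, each drawn at its distance from the first summit (x axis, kb) with its signal in the IDR list (y axis, authors' unit, 1 scale per panel) and coloured by location. The Raf chain is the longest at 10421 bp, and the ush chain holds the highest summit of the 6, with a signal of 2587.

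The other chains with 7 summits lay at CG43389 on 3L, at ced-6 on 2R, before Dyro on 3L, between mamo and ben on X, within shep on 3L and 4453 bp or more before soti on 3R. ced-6 encodes an adaptor for engulfing dead cells, mamo a zinc finger protein, ben a ubiquitin-conjugating enzyme and shep an RNA-binding protein. The strongest summit of the CG43389 chain, 435 bp before lncRNA:CR43626, ranked 77 in the IDR list and 80, 72 and 69 in the replicates. A second summit 207 bp away fell in the same peak in each replicate. Among the chains of 6 summits, that of osa, a subunit of the Brahma chromatin remodelling complex, reached rank 12 in the IDR list and 14, 10 and 14 in the replicates. This summit lay in an exon without coding sequence, 704 bp from the start of lncRNA:CR46035 and within the span of osa. Chains of 6 also lay in tara, in E2f1, a transcription factor of cell cycle entry, in mtgo and at 2 places in CG1677. Chains of 6 that no coding gene held lay, among other places, next to CG18404 and at the start of fng, whose product modifies the Notch receptor. The highest summit in any chain lay in ush, a zinc finger cofactor of GATA factors, in a chain of 4 on 2L. It ranked 2 in the IDR list and 3, 2 and 5 in replicates 1, 2 and 3. It lay 1369 bp before the start of cbt, which lies inside ush, and the other 3 summits of the chain ranked 144, 3678 and 4355.

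Most chains were seen again in the replicates, although the IDR list was made from these replicates and the overlap is no independent test. At least 3 summits of a chain lay in top N peaks in 339 chains in replicate 1, 325 in replicate 2 and 307 in replicate 3, or 78.6% ± 3.89 of chains (SD, n = 3). This held in all 3 replicates for 232 chains (56.3%), in 2 for 112, in 1 for 51 and in none for 17. Since neighbouring summits can fall in 1 replicate peak, chains with 3 or more different replicate peaks were also counted, a choice made after seeing the data. There were 308, 277 and 269 in replicates 1, 2 and 3, and 191 (46.4%) in all 3. All 3 top N lists covered the strongest summit in 93.2% of chains and the weakest in 42.0%. The share was 71.8% for all chain summits and 65.7% for single summits.

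Chains were held by 276 of 13945 coding genes, 1.98% (95% exact binomial interval 1.75% to 2.22%, which like all intervals here covers counting error only). A gene was said to hold a chain when most of its summits lay between 500 bp before the gene and its end, which is a statement of place and not of a target. In all, 290 chains (70.4%) were held by a coding gene, 258 of them with every summit in 1 gene. A further 15 chains were held by noncoding genes only and 107 by no gene. In the top N lists 72.6%, 70.1% and 75.6% of chains were held by a coding gene, 72.8% ± 2.75 (SD, n = 3), and 287, 279 and 328 genes held one. Of the 276 genes, 221 also held a chain of replicate 1, 203 of replicate 2 and 200 of replicate 3. All 3 replicates had a chain in 142 of the genes (51.4%), and none had one in 16. With the peaks found in both other replicates, 157 genes held a chain without replicate 1, 174 without replicate 2 and 183 without replicate 3.

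Genes that held chains were long. Their median length was 19442 bp (quartiles 9380 and 42888 bp), against 2166 bp for all coding genes (1179 and 4998 bp). The share of genes holding a chain was higher at each step of length, from 0.107% of those up to 2 kb and 0.507% at 2 to 5 kb to 2.92% at 5 to 10 kb, 7.47% at 10 to 20 kb, 10.9% at 20 to 50 kb and 18.2% above 50 kb. The density of summits went the other way, from 0.120 per kb in the shortest genes to 0.0430 per kb in the longest, with the 500 bp before the gene counted in. A long gene has more room for a chain, and its share was not adjusted for that. Among the 599 genes with 3 or more summits, 256 (42.7%) held a chain. Over all coding genes the middle summit of a chain lay a median of 24.8% along the gene from its start (n = 290), further in than single summits at 16.9% (n = 3028). In genes longer than 10 kb the order was the other way, and the middle summit of a chain lay at 28.4% (n = 229), against 35.9% for single summits (n = 1725).

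**Figure D4:**
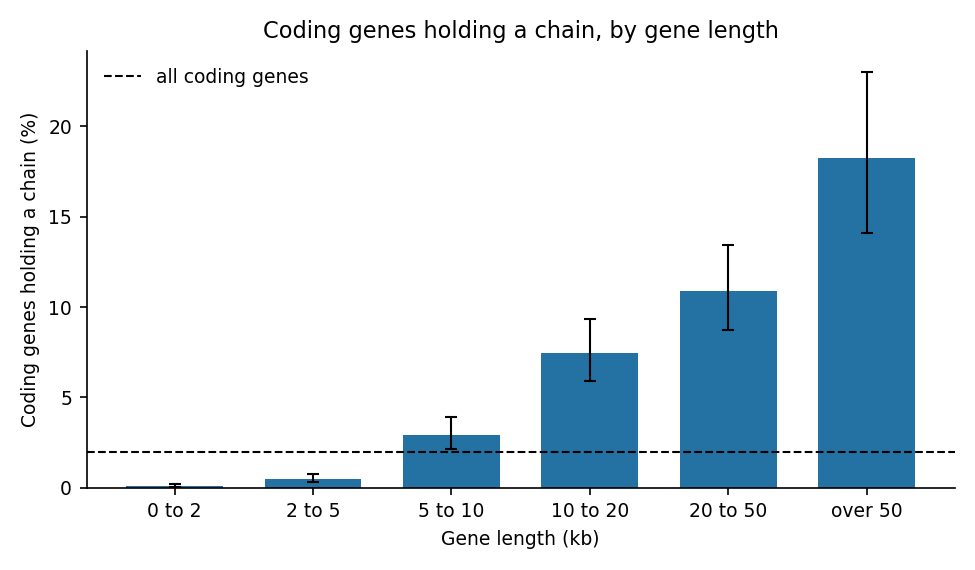
Percentage of coding genes holding a chain (y axis) by gene length in kb (x axis), with 95% exact binomial intervals. The dashed line is the 1.98% of all coding genes, and the bars go from 0.107% to 18.2%.

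Of the 251 genes credited with a chain, where each chain goes to the coding gene holding most of its summits, 32 had more than 1 chain and 5 had 3 or more. shn, a zinc finger protein of Dpp signalling, held 4 chains with 18 of its 22 summits. In the replicates it held 1, 3 and 4 chains, so replicate 1 placed far fewer of the summits in chains than the others. sbb, the gene of the nuclear protein scribbler, also held 4 chains, with 17 of 26 summits, and 3, 4 and 4 in the replicates. CG1677 held 3 chains with 17 summits, and 4 in every replicate. Its annotated span of 124709 bp also takes in other genes, among them CBP and unc-119, whose starts were the nearest to its largest chains.

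Several other genes held 2 or 3 chains. Mnt, a repressor that competes with Myc for the partner Max, held 3 chains and 3, 2 and 3 in the replicates. Tet, of the family of enzymes that oxidise methylated bases, held 3 chains and 3, 1 and 3. kirre, an adhesion protein of myoblast fusion whose gene is 394149 bp long, held 3 chains and 3, 3 and 6. The kirre chain of 4 summits was credited to CG32795, which lies within the span of kirre. Replicate 3 had more chains than the other 2 at kirre, as it did on X as a whole, where it also had more summits. psq, a BTB-domain DNA-binding protein, held 2 chains and 2, 3 and 3 in the replicates, and heca, the gene of headcase, held 2 in the list and in every replicate. mtgo, Tlk (a nuclear kinase), tna and CG33158 each held 2 chains in the list and 1 or 2 in each replicate.

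Genes on the lists for signalling pathways that held a chain included those of ligands, receptors and nuclear factors. Of the genes on a list for the EGF receptor and Ras pathway, 6 of 33 held a chain (18.2%, interval 6.98% to 35.5%): the ligand gene spi, the kinase gene Raf, the ETS-domain factors pnt and aop, the repressor cic, and aos, which encodes a secreted inhibitor. The spi chain had 4 summits, of which top N peaks covered 4, 2 and 3 in replicates 1, 2 and 3. The chains that spi held in the replicates' own lists had 4, 3 and 4 summits. The pnt chain had 5 summits, and 4 in each replicate. The aos chain was credited to CG33158, within whose span aos lies. Of the Dpp and activin list, 5 of 28 genes held a chain (17.9%): the receptors tkv and wit, the glypican dlp, the BMP-binding protein cv-2 and shn. wit, a type II receptor, held 3 summits in the list and in each replicate, the best at rank 146. tkv, a type I receptor, held 4 in the list and 4, 5 and 4 in the replicates.

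The list for the Wnt and Hippo pathways had 9 of 32 genes with a chain (28.1%, interval 13.7% to 46.7%). The Wnt side held the ligand Wnt6, the receptors arr and fz2, the kinase sgg and the antagonists nkd and Notum. The Hippo side held ex and kibra, which act upstream, and the kinase wts. arr had the largest chain, with 5 summits. In the replicates it held 1, 2 and 1 chains, with 6, 9 and 5 summits in all. nkd held 2 chains in the list, but 1 in replicate 1, none in replicate 2 and 2 in replicate 3. wts held its chain in replicates 1 and 3 and not in replicate 2. For the insulin, TOR and translation list the count was 5 of 35 (14.3%): the receptor InR, the kinase Sik3, the RNA-binding protein larp, Myc and Mnt. The larp chain reached rank 11, yet in replicate 3 larp held no chain. Myc, the growth regulator that Mnt opposes, held 3 summits in the list and in each replicate.

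Nuclear regulators followed. Chromatin proteins and AT-rich DNA binders had 8 of 42 genes with a chain (19.0%, interval 8.60% to 34.1%), among them osa, ph-p of the Polycomb group, psq, lola, bab1, Tet and the HMG-box genes HmgD and HmgZ. HmgD and HmgZ overlap the same chain of 3 summits, whose best rank was 22. ph-p held 4 summits in the list and in each replicate, the best at rank 53. Of the ecdysone cascade, 5 of 30 genes held a chain (16.7%): the nuclear receptors Eip78C and Hr3, the ETS-domain factor Eip74EF, the kinase Eip63E and vri, a bZIP factor also on the clock list. Eip78C held 3 summits in the list and in every replicate, the best at rank 43. Eip63E held its chain in the list and in none of the replicates. Eip74EF held its chain in replicates 1 and 2 only. The clock list had 2 of 10 genes, vri and sgg, and the Hox list 1 of 8, Antp. The 2 Antp chains were credited to CG46458, which lies within its span, and the Hr3 chain to CG46321, which lies within that of Hr3.

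Other lists had few or none. Regulators of disc patterning had 3 of 56 genes with a chain (5.36%): bowl, bab1 and hth. bowl, a zinc finger gene of only 12422 bp, held 2 chains in the list and in every replicate. In the list they had 4 and 3 summits, of which 4 and 2 lay in bowl. By contrast hth, of 132008 bp, held 1 chain in replicate 3 alone. Cell adhesion and axon guidance had 5 of 66 (7.58%), kirre, mew, Fas3, ed and CadN. Fat storage and lipid synthesis had 2 of 19, the lipase gene bmm and the lipid droplet gene Lsd-2, and the Notch list 1 of 28, numb. No chain was held by any of the 27 muscle, 30 cell death and autophagy or 76 cytosolic ribosomal protein genes on these lists. Of the ribosomal genes 63 had a summit. The lists are not complete. ced-6, which held a chain of 7 summits, was not among the 30, and kirre was counted under adhesion.

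These shares have to be read against 1.98% of all coding genes and against length. Having any summit also differed, and the shares were not adjusted for it. At least 1 summit lay in 25.1% of all coding genes. The counts were 27 of 30 ecdysone, 24 of 33 EGF receptor, 23 of 32 Wnt and Hippo and 10 of 27 muscle genes. The ribosomal genes had a median length of 1391.5 bp, and 0.107% of all genes up to 2 kb held a chain. The disc patterning list had a median of 14251 bp and the muscle list one of 10886 bp, where 7.47% of all genes held a chain. Adhesion genes had a median of 40274 bp, where 10.9% did. The Wnt and Hippo list had a median of 13387.5 bp and the EGF receptor list one of 14083 bp, in the range where 7.47% did. The chromatin, Dpp and insulin lists had medians of 7286.5, 7516 and 5761 bp, in the range where 2.92% did, and the fat storage list at 9522 bp lay in the same range. The ecdysone list had a median of 23501 bp and the Hox list one of 30563 bp, in the range where 10.9% did. The clock list had a median of 12433 bp (7.47%), the cell death list one of 2918.5 bp (0.507%) and the Notch list one of 1221 bp (0.107%), with the share of all genes in that range of length in parentheses. The range of a median is not a match for the length of each gene. On the Dpp list, shn, tkv, dlp and cv-2 had 58309, 52385, 39009 and 24450 bp, and only wit, at 7566 bp, lay near the median. The shares were therefore not matched for length. No test was made of any list, and some genes stand on more than 1 of them.

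Chains that no coding gene held numbered 122. Some of them had summits at promoters or in introns, so not all lay outside genes. Their strongest summit lay a median of 5261 bp from the nearest coding start and 2016 bp from the nearest start of any gene. For 61 of them that nearest start was noncoding. Coding starts nearest to more than 1 such chain were named after their values were seen. They included kay, the Fos transcription factor gene, and ovo, a zinc finger gene, each with 2 chains, the nearest 2666 bp before a kay start and 1537 bp before an ovo start.

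The middle summit of a chain lay at a promoter less often than a single summit did, and in an intron more often. One summit per chain was used, the middle one along the arm (of a middle pair, the one with the lower coordinate), and compared with single summits by Fisher's exact test (two-sided, adjusted over 7 classes by the Benjamini-Hochberg method). The test takes places in the IDR list as independent, although some chains share a gene. Its p-values do not measure the spread between animals, for which the replicate differences are given. Within 500 bp of a start lay the middle summit of 104 of 412 chains (25.2%, interval 21.1% to 29.7%) and 1504 of 3786 single summits (39.7%, 38.2% to 41.3%). The odds ratio was 0.512 with an adjusted exact p of 3.45e-08 in Fisher's test. The difference was -14.1, -18.6 and -15.6 percentage points in replicates 1, 2 and 3, and -16.1 ± 2.27 on average (SD, n = 3). Introns held 215 chains (52.2%) and 1544 single summits (40.8%), an odds ratio of 1.58 with an adjusted exact p of 3.39e-05. Here the replicates differed by 12.2, 13.2 and 13.4 points, 12.9 ± 0.675. For both classes every replicate showed the same direction, and the difference was several times its SD. With a gap limit of 1 kb, which left fewer chains, the intron difference no longer passed (odds ratio 1.32, adjusted exact p = 0.228).

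The remaining classes did not pass the test. Intergenic DNA held 86 chains (20.9%) and 640 single summits (16.9%), with an odds ratio of 1.30 and an adjusted exact p of 0.0816. Its difference was 2.58, 5.82 and 3.09 points in the replicates. With the IDR peaks found in both other replicates, the intergenic odds ratio passed the test without replicate 1, at 1.67 with an adjusted exact p of 0.00514. It also passed with the strongest summit of each chain (1.35, adjusted exact p = 0.0461) and at a gap of 1 kb (1.83, adjusted exact p = 0.00561). No middle summit was classed as 3′ UTR or coding exon, against 36 and 8 single summits (adjusted exact p = 0.0816 and 1). A chain spans more than the promoter window, so a chain can reach a promoter without its middle summit lying there. In 224 chains (54.4%) some summit was at a promoter, and in 188 none was. All summits lay in introns in 112 chains, in intergenic DNA in 66 and at promoters in 19. Not 1 of the 1469 chain summits was classed as coding exon. That class leaves out summits within 500 bp of a start or in a UTR, which were not checked for coding sequence.

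**Figure D5:**
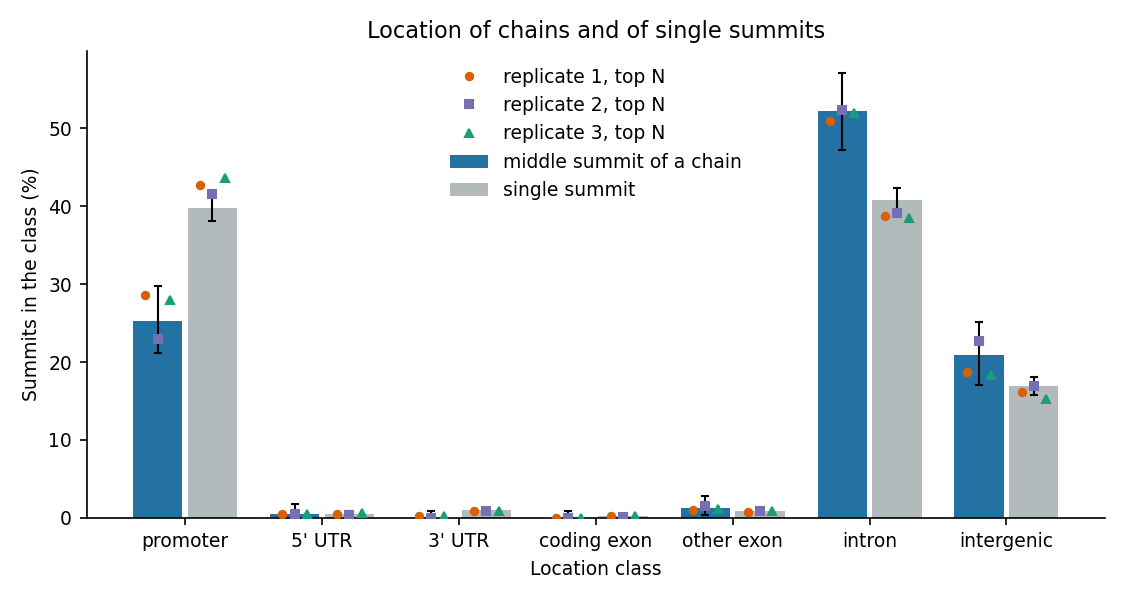
Percentage of summits in each location class (y axis) for the middle summit of each chain and for single summits, with 95% exact binomial intervals and the same shares in the top N of each replicate (symbols). At promoters all 3 replicates put the middle summits of chains below single summits, by 14.1 to 18.6 points, and in introns above them, by 12.2 to 13.4 points.

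Chain summits were somewhat stronger than single ones. Their median signal in the IDR list was 178.9, against 157.5 in pairs and 151.4 for single summits, in the authors' unit. The median rank of chain summits was 3173, 3043.5 and 2963 in the top N of replicates 1, 2 and 3, against 3769, 3755 and 3805 for single summits. Each chain median lay at a better rank than every single-summit median. Of the summits in the strongest 10% of the list 26.3% were in chains, and of those in the weakest 10% 15.5%. Signal was uneven within a chain. The strongest summit had a median of 3.02 times the signal of the weakest (quartiles 1.99 and 4.65), and at most 22.5 times. It stood at an end of the chain in 248 chains (60.2%), including 186 of the 267 chains of 3 (69.7%), where 2 of the 3 places are ends. A summit of the strongest 10% was present in 148 chains (35.9%). Of the 100 highest peaks of the list, 26 lay in 22 chains.

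In base composition chain summits and single summits were nearly the same. In the 100 bp around a summit, chain summits had on average 67.8% A and T and single summits 68.1%, against 57.8% over the 6 arms. The difference was -0.58, -0.42 and -0.04 percentage points in the replicates, -0.35 ± 0.276 (SD, n = 3). Midway between chain summits more than 800 bp apart the share was 58.3% (610 places), so on average the A and T share between neighbouring summits was about that of the arms. Single places varied, as the 4 stretches between summits printed above do, from 53.1% at Raf and 55.6% at osa to 61.7% at ush and 67.9% in the CG43389 chain. In the 81 bp around a summit the longest run of A and T had a median of 10 bases in both sets.

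Short strings were counted on either strand of the 200 bp centred on a summit, as a description of the letters present. TATCGATA, the core of the DNA replication-related element found at many promoters, lay at 12 chain summits (0.817%) and 73 single summits (1.93%), and at 1.71% of all 7089 summits. GAGAGA, the repeat bound by GAGA factor and related proteins, lay at 11.4% of chain summits, 10.6% of single summits and 11.2% of all. The CA repeat CACACACA lay at 3.81%, 3.41% and 3.65% in the same order, and AAAAAAAA at 19.3%, 19.7% and 19.5%. At least 1 summit with GAGAGA was present in 144 chains (35.0%).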

How the data were processed

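Peak lists from anti-GFP ChIP-seq of CG44002 were used. Aligner, peak caller and IDR threshold were not given in the sources used here. Read depth is unknown, so the precision rests on 3 replicates and on the number of peaks. The signal of each peak is a value the authors deposited, on a scale the files do not state, and ranks peaks within 1 list only. The −log10 q-value column the authors deposited was not used for ranking. The dm6 lists of 30000 peaks per replicate and the IDR list were analysed, and 0 columns of other samples were present. Nothing in the labels says that replicates share more than the line, and each is called a biological replicate there.

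Summits (1-based) were chained at gaps of up to 2000 bp. No peak ran past an arm's end in the NCBI release 6 sequence. Genes came from Ensembl 115 (BDGP 6.54), without transposable elements. Expected chain numbers came from the exact formula for uniform spacings. A summit was classed as promoter before exon, and exon before intron; within exons, untranslated parts came before coding ones. Fisher's exact test ran in scipy 1.17.1 with Python 3.11.15, numpy 2.4.6 and matplotlib 3.10.9, at a threshold of 0.05 after adjustment. Scripts were tested on simulated data.

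Members, the 15 gene lists and the tests were chosen with earlier results of these data known. Of 535 list names, 520 matched coding genes by symbol. Genes were named if credited with the 20 largest chains, with 2 or more chains (up to 12 genes), as up to 6 members per list, or as the nearest start of the 5 largest chains in no coding gene. Neighbouring, overlapping and uncredited genes were named after their values were seen. Alternatives were other gaps, sizes, merged summits, stronger peaks, replicates left out, the dm3 list, other flanks, windows and overlaps. One more, different replicate peaks, was added after seeing the data.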

Additional observations from a re-analysis of the deposited data

How the results depend on the processing

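No paired analysis was possible because the series has 1 group. The number of chains (412) and of summits in them (1469) moved with the definition, to 153 and 500 at a gap of 1 kb, to 580 and 2242 at 3 kb, to 145 and 668 for chains of 4 or more, to 115 and 385 among the stronger peaks, and to 198 and 662 for peaks that every replicate's top N held. With each replicate set aside in turn, IDR peaks found in the top N of the other 2 gave 230 to 263 chains and 779 to 892 summits. The IDR list behind these runs was still made from all 3 replicates. The expected numbers fell too, to 18.4, 6.77, 9.14 and 21.8 chains at 1 kb, for 4 or more, among stronger peaks and with full support, and rose to 133.5 at 3 kb, where the ratio to the expected number was lower than at 2 kb. With summits within 400 bp merged, 299 chains were left against 54.9 expected. Spreading positions from the first to the last summit of an arm raised the expected number from 66.0 to 81.9, and leaving out coding exons to 91.6. The share of chains held by a coding gene was 62.6% with all summits required, 62.9% with no flank, 65.4% at 1 kb and 70.3% to 73.8% without a replicate. Genes holding a chain numbered 95 at 1 kb, 81 among the stronger peaks and 157 to 183 without a replicate.

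The odds ratio for 5′ UTRs turned to 1.35 with a 200 bp promoter window, 1.31 with 1000 bp and 1.07 at 1 kb, and that for other exons to 0.610 at 1 kb, none past the test. Introns lost the call at 1 kb (1.32, adjusted exact p = 0.228). Intergenic DNA passed with the strongest summit (1.35, 0.0461), at 1 kb (1.83, 0.00561) and, over a range of 1.34 to 1.67 without a replicate, when replicate 1 was left out. 3′ UTRs passed at 200 bp (0, 0.0456). The cause was not tested. The A and T share was 65.8% in 200 bp and 68.3% to 68.7% without a replicate, the median rank 2403 to 2535, and 364 chains were found in all 3 replicates when any listed peak counted. With 1 summit taken per chain, promoters kept their direction and call in every alternative run. Chains with any summit at a promoter were not compared with single summits. Depth is unknown, and summits under 1 fragment length apart may not be separate.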

Other observations

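Most windows with a chain held only 1, and a few held several. Of the 303 windows of 100000 bp that held a chain, 224 held 1, 57 held 2, 16 held 3, 4 held 4 and 2 held 5. A window with 5 chains, 3L:700001 to 3L:800000, had 1 with 4 chains just before it. With the window after it included, from 3L:600001 to 3L:900000, 11 chains took up 46 of 75 summits and none of 35 coding genes held a chain. The stretch includes emc, which encodes a helix-loop-helix protein that blocks proneural factors, and hng3, the coding start nearest to 3 of these chains. The other window with 5 chains, 3R:30200001 to 3R:30300000, had 20 of its 28 summits in chains. There heca held chains near one end and CG18404 was the nearest coding start to 2 chains, while the cecropin genes CecA1, CecA2, CecB and CecC, which encode antimicrobial peptides, held none. These stretches and genes were picked for their counts, and no test was made.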
